A study of Mus musculus with 10 samples.

Results

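The voltage-gated sodium channel genes Scn1a, Scn2a, Scn3a and Scn8a, which encode pore-forming alpha subunits, and Scn2b, Scn3b and Scn4b, which encode accessory beta subunits, were followed in the hippocampus of mice lacking the thyrotropin receptor gene Tshr and of wild-type mice. They are the 7 rows of the deposited gene table that carry these names, out of 52636 genes, and all 7 passed the filter of a mean of at least 0.5 FPKM (fragments scaled to gene length and to library size) that left 15471 genes tested. The series holds 5 Tshr-/- and 5 wild type libraries, all from C57BL/6 mice aged 3 months, and its title concerns learning and memory without this receptor. Replicates are called biological, with no word on whether each came from one animal or from pooled tissue, so p-values measure the spread between these samples. Littermate status, the deleted stretch of Tshr and any hormone replacement in the mutants, whose thyroid glands lack a main drive to hormone synthesis, are likewise unstated.

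A voltage-gated sodium channel opens when the membrane depolarises, carries the rising phase of the action potential and then closes itself by fast inactivation. Each alpha subunit is a complete channel of repeated membrane domains, and the beta subunits alter its gating and its delivery to the membrane. In forebrain neurons Scn2a (Nav1.2) and Scn8a (Nav1.6) supply much of the axonal current of excitatory cells, with Scn8a gaining on Scn2a as axons mature. Scn1a (Nav1.1) is prominent in fast-spiking inhibitory cells, and Scn3a (Nav1.3) is known chiefly from the embryonic brain.

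The 4 alpha genes are close relatives, so the bases that tell them apart matter for every value given for one of them. Over the coding sequences of the GENCODE vM21 transcripts (GRCm38), Scn2a shares 83.2% of aligned bases with Scn1a, 84.2% with Scn3a and 75.5% with Scn8a. The longest identical run between transcripts is 188 bases for Scn1a and Scn2a, 143 bases for either of these with Scn3a, and 32 to 55 bases for Scn8a with the others. Reads that fall wholly inside such a run cannot be assigned to one of these genes. The values of Scn1a, Scn2a and Scn3a may thus be less certain than that of Scn8a, but the number of such reads was not measured. The 3 beta genes share runs of at most 15 bases and 61.4% to 62.5% of aligned coding bases with each other.

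On mm10, the members lie on 3 chromosomes. On chromosome 2, Scn3a (65457118 to 65567627, minus strand) is followed by Scn2a (65620771 to 65767447, plus strand) and Scn1a (66270778 to 66440840, minus strand), and then by Scn9a and Scn7a. On chromosome 9, Scn3b lies at 40269217 to 40291618, Scn2b, 4826163 bases on, at 45117782 to 45130070 and Scn4b at 45138395 to 45154152, all on the plus strand. Scn8a lies alone at 100869858 to 101045938 on the plus strand of chromosome 15. The library kit does not mark the strand, and 4 members overlap a gene on the opposite strand. These are Gm13630 in Scn1a, Gm13595 in Scn3a, Gm10684 at Scn2b and AC135353.1 in Scn3b, and none of the 4 exceeded 0.363 FPKM in any library.

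Per length, the beta genes Scn2b and Scn3b stood highest, with means over the 10 libraries of 61.5 and 48.2 FPKM. Scn8a (26.5 FPKM) and Scn2a (23.4) followed, then Scn1a (11.2), Scn4b (7.09) and Scn3a (4.76). The median tested gene stood at 5.05 FPKM. Most steps of this order held in all 10 libraries, and 2 neighbouring pairs did not separate. Scn8a exceeded Scn2a in 3 of 5 Tshr-/- libraries and 5 of 5 wild type libraries, and Scn4b exceeded Scn3a in 2 of 5 Tshr-/- libraries and 5 of 5 wild type libraries. Reads rebuilt from the FPKM numbered at least 1268 for each member in each library except Scn4b, which had 565 to 1682, so that counting error was at most 4.21% of a value for any of the 7 genes.

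**Figure D1:**
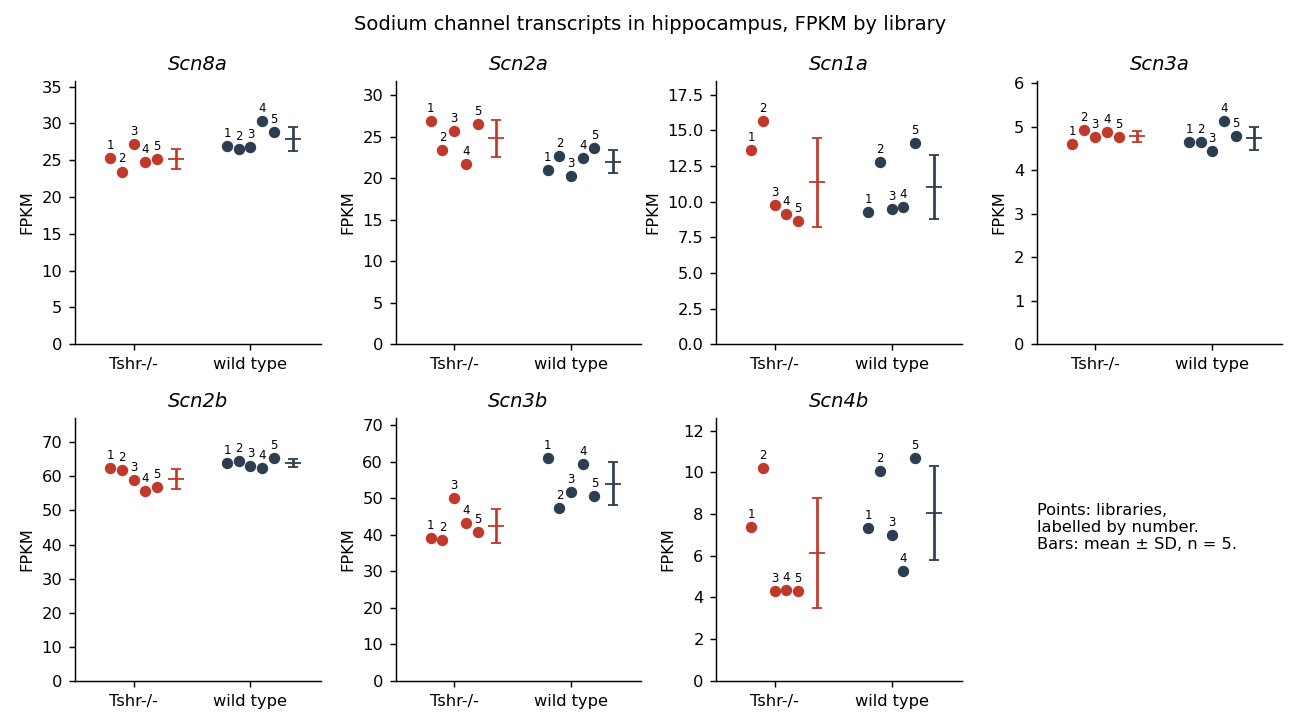
FPKM (vertical axes, from 0) of the 7 sodium channel genes in each library, Tshr-/- in red and wild type in dark blue, with the library number above each point and the mean ± SD of 5 libraries as bars. Scn2b and Scn3b stood highest, Scn1a and Scn4b varied most between libraries, and Scn2b was the member whose genotypes did not overlap at the deposited scaling, though they did with quantile normalization or when centred on pan-neuronal markers.

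No member was called between the genotypes by limma at an adjusted p below 0.05 over all genes, where 0.0129% of the 15471 genes were called. At an unadjusted p below 0.05 limma gave 4 of the 7, namely Scn2b, Scn3b and Scn8a with lower values in Tshr-/- and Scn2a with higher values. The same held for 13% of all genes tested (8.38% lower and 4.65% higher in Tshr-/-). Limma voom on the rebuilt reads also called 0 of the 7 and gave 3 lower and 1 higher at an unadjusted p below 0.05. The smallest adjusted p among the members was 0.187. Differences below are on the log2(FPKM + 0.1) scale, positive where Tshr-/- was higher, with the standard error (SE) and the Benjamini-Hochberg adjusted p of limma. By sign 4 of the 7 were lower in Tshr-/-, as were 53.3% of all genes, and the median difference was -0.11 over the 7 members and -0.01 over all genes tested. The 2 genes called in the whole table were both lower in Tshr-/-, a split that changed to 6 lower and 7 higher with median-ratio scaling, 2 and 2 with quantile normalization, and 4 and 14 when centred on pan-neuronal markers. The genotypes did not overlap for 1 of the 7 members, against 2.68% of all genes (1.76% with all Tshr-/- libraries below wild type and 0.911% above). Members without overlap numbered 1 with median-ratio scaling, where the share of all genes was 2.48%, 0 with quantile normalization (2.35%) and 1 when centred on pan-neuronal markers (3.07%). In bulk tissue, fewer cells of a type and less RNA per cell cannot be told apart.

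Scn8a, the channel of mature axon initial segments and nodes of Ranvier, had 25.2, 23.5, 27.2, 24.7 and 25.2 FPKM in Tshr-/- libraries 1 to 5, against 26.97, 26.5, 26.8, 30.3 and 28.8 FPKM in wild type libraries 1 to 5. All Tshr-/- libraries except library 3 lay below the lowest wild type library. The difference was -0.15 ± 0.06 (SE, limma adjusted p = 0.307), or 9.72% lower. It was smaller with quantile normalization, at -0.07 (limma adjusted p = 0.656), and when centred on pan-neuronal markers, at -0.06 (limma adjusted p = 0.67).

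Scn2a, which encodes the channel of the unmyelinated and early axon, leaned the other way. Its values were 26.9, 23.4, 25.7, 21.7 and 26.6 FPKM in Tshr-/- libraries 1 to 5, against 21.0, 22.7, 20.3, 22.4 and 23.7 FPKM in wild type libraries 1 to 5. Tshr-/- libraries 1, 3 and 5 lay above every wild type library, while libraries 2 and 4 lay within the wild type range. The difference was 0.17 ± 0.07 (SE, limma adjusted p = 0.344), or 12.6% higher, and it did not pass. Centred on pan-neuronal markers, it was 0.26 (limma adjusted p = 0.175) and all Tshr-/- libraries lay above all wild type libraries.

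Set against each other within a library, where the scaling of the library cancels, Scn8a and Scn2a stood closer to equal without Tshr. The ratio of Scn8a to Scn2a FPKM was 0.938, 1.002, 1.06, 1.14 and 0.947 in Tshr-/- libraries 1 to 5, against 1.29, 1.17, 1.32, 1.35 and 1.22 in wild type libraries 1 to 5. Every Tshr-/- library lay below every wild type library. The ratio averaged 1.02 ± 0.0832 in Tshr-/- and 1.27 ± 0.0752 in wild type (SD, n = 5 each). It was formed from 2 members after their values were seen, so it is given as a description with no test, and it shows unequal levels rather than which gene differed. As a share of the summed FPKM of the 4 alpha genes, Scn2a made up 34.7% to 40.8% in Tshr-/- and 33.2% to 34.1% in wild type. Scn8a made up 34.8% to 40.9% in Tshr-/- and 39.8% to 44.9% in wild type. The sum itself overlapped between the genotypes, at 66.1 ± 3.72 FPKM in Tshr-/- and 65.7 ± 4.29 FPKM in wild type (SD, n = 5 each).

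**Figure D2:**
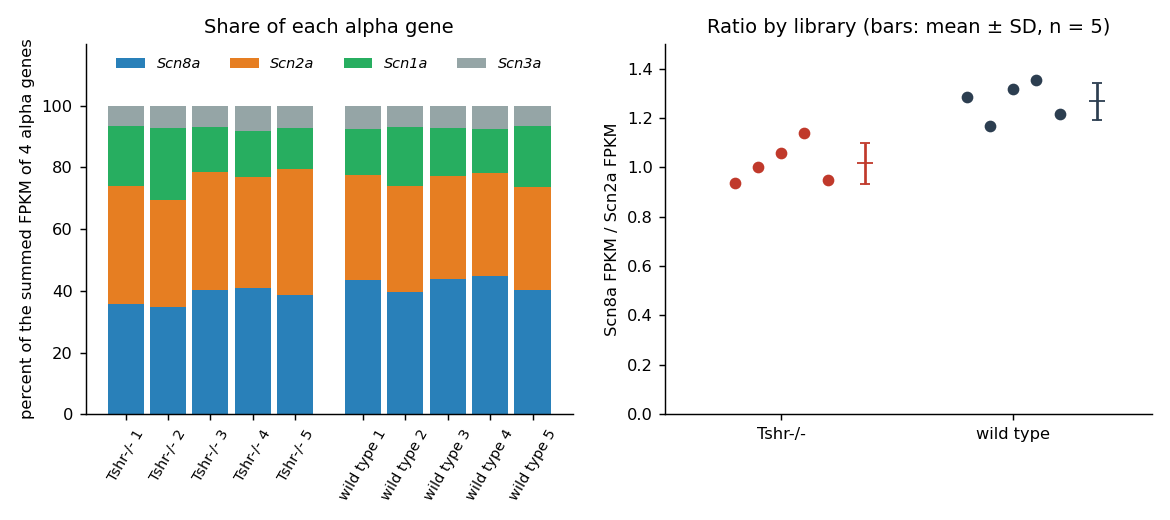
Left, the percent of the summed FPKM of 4 alpha genes that each gene holds, by library. Right, the ratio of Scn8a to Scn2a FPKM by library (points) with mean ± SD of 5 libraries, which lay at 0.938 to 1.14 in Tshr-/- and at 1.17 to 1.35 in wild type.

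Scn1a, the alpha subunit best known from parvalbumin interneurons, varied more within a genotype than between them. It had 13.6, 15.6, 9.76, 9.11 and 8.63 FPKM in Tshr-/- libraries 1 to 5, against 9.29, 12.8, 9.46, 9.59 and 14.1 FPKM in wild type libraries 1 to 5. The high libraries were Tshr-/- 1 and 2 and wild type 2 and 5, and the genotypes overlapped throughout. The difference was 0.02 with a 95% interval from -0.39 to 0.43 (limma adjusted p = 0.976), so differences of either sign up to that size could not be told from none.

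Scn3a, the embryonic alpha subunit, was the steadiest member. It had 4.60 to 4.92 FPKM in Tshr-/- with a median library of 4.76, against 4.43 to 5.13 FPKM in wild type with a median library of 4.65. Its values overlapped fully, and the SD of its log2 values over all libraries, 0.0568, was at the 1.86th percentile of all genes tested. The difference was 0.02 with a 95% interval from -0.10 to 0.13 (limma adjusted p = 0.918). Scn1a stood 2.37 ± 0.647 times above Scn3a in Tshr-/- and 2.34 ± 0.478 times in wild type (SD, n = 5 each), with overlapping values.

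Among the beta genes, Scn3b encodes a subunit that is not linked to the alpha subunit by a disulphide bond. It had 39.0, 38.6, 49.96, 43.3 and 40.7 FPKM in Tshr-/- libraries 1 to 5, against 61.0, 47.3, 51.7, 59.4 and 50.6 FPKM in wild type libraries 1 to 5. Tshr-/- library 3 lay above wild type library 2, and the other 4 Tshr-/- libraries lay below all wild type libraries. The difference was -0.35 ± 0.09 (SE, limma adjusted p = 0.187), or 21.5% lower, the smallest adjusted p of the 7 genes and not past the threshold.

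Scn2b encodes a subunit that is disulphide-linked to the alpha subunit. Its values lay close together, at 62.3, 61.8, 59.1, 55.6 and 57.0 FPKM in Tshr-/- libraries 1 to 5, against 64.0, 64.4, 63.0, 62.3 and 65.4 FPKM in wild type libraries 1 to 5. It was the one member whose genotypes did not overlap at the deposited scaling, with the highest Tshr-/- value just below the lowest wild type value. The difference was -0.11 ± 0.05 (SE, limma adjusted p = 0.344), or 7.39% lower. It was -0.02 when centred on pan-neuronal markers and -0.04 with quantile normalization, and in both the genotypes overlapped. Scn2b, Scn3b and Scn4b together had 102 to 113 FPKM in Tshr-/- and 122 to 132 FPKM in wild type, without overlap at the deposited scaling. This sum was formed after their values were seen and was not formed at the other scalings. Scn3b and Scn4b each overlapped at every scaling, and the share of such sums without overlap was not computed.

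Scn4b encodes the beta subunit whose inner tail can block open channels and allow resurgent current. It had 7.39, 10.2, 4.31, 4.35 and 4.33 FPKM in Tshr-/- libraries 1 to 5, against 7.33, 10.04, 6.99, 5.27 and 10.7 FPKM in wild type libraries 1 to 5. Its high and low libraries matched those of Scn1a in Tshr-/-, where libraries 1 and 2 stood high, and it ranged over 2.48-fold among the 10 libraries. The difference was -0.44 ± 0.27 (SE, limma adjusted p = 0.51), with a 95% interval from -1.04 to 0.16. The SD of its log2 values over all libraries, 0.52, was at the 91.7th percentile of genes tested, against the 8.38th percentile for Scn2b.

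Scn2b and Scn4b are neighbours, 8324 bases apart and transcribed in the same direction, and their start regions are shown because one gene was among the steadier and the other among the more variable in these libraries. The regions are RefSeq promoters of GRCm38.p6, reaching from 250 bases before to 50 after each start, on the plus strand. The Scn2b region is chr9:45117626-45117925 and the Scn4b region is chr9:45138374-45138673. These RefSeq starts lie downstream of the gene starts in the deposited coordinates, 45117782 for Scn2b and 45138395 for Scn4b. By those coordinates, part of the Scn2b region and most of the Scn4b region lie inside the gene rather than before it. Capitals mark matches, on either strand, to the GC box GGGCGG, the CCAAT box CCAAT or the TATA box TATAAA, which do not overlap here.
Scn2b: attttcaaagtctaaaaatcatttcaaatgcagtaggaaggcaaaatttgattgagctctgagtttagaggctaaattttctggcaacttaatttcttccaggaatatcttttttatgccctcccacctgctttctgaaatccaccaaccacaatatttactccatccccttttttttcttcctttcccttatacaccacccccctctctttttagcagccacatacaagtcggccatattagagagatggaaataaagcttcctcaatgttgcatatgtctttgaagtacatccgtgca
Scn4b: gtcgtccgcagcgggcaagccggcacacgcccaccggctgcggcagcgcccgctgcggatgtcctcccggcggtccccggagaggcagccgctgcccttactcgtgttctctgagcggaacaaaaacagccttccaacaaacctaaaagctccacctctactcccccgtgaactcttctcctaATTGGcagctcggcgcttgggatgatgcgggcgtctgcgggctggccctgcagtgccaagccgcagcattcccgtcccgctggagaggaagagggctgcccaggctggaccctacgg
The Scn2b region is 38.3% G or C, at the 7.92th percentile of all promoters of this length, and holds none of these motifs (0 matches). The Scn4b region is 66.3% G or C, at the 85.01th percentile, and holds 1 CCAAT match on the opposite strand. Of 32851 promoters of 300 bases, 37.4% hold CCAAT, 35.7% hold GGGCGG and 13.6% hold TATAAA. A match is a string of letters and not a measured site, and 5 of the 7 members had an entry in the promoter table.

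Markers of tissue beside the hippocampus were high in the 4 libraries where Scn1a and Scn4b were highest. The thalamus and habenula list had 15 of 15 genes measured, and its summed level was 49.7 to 331 FPKM in Tshr-/- and 27.3 to 179 FPKM in wild type. Its mean log2 level, relative to all 10 libraries, was 1.58 and 2.33 in Tshr-/- libraries 1 and 2 and 0.82 and 1.43 in wild type libraries 2 and 5, and lay from -1.52 to -0.66 in the other 6 libraries. Scn4b in wild type library 1, at 7.33 FPKM, was nearly as high as in Tshr-/- library 1, at 7.39 FPKM, although the list stood at -1.33 there. Shox2 and Gbx2 of that list were at 0 in a library and its other members were above 0 in every library. All 15 genes were higher in Tshr-/- by sign and 0 of them were called.

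With the mean of that list as a covariate, Scn4b was called lower in Tshr-/-, by -0.67 ± 0.09 (SE, limma adjusted p = 0.0403). It was among 28 of 15471 genes called in that fit. Scn1a stood at -0.13 ± 0.05 (limma adjusted p = 0.266), on the opposite side of 0 from the fit without the covariate. Over the 25 alternatives tried, the adjusted p of Scn4b ran from 0.0403 to 0.786. In the 6 libraries low in these markers, Scn4b had 4.31 to 4.35 FPKM in Tshr-/- and 5.27 to 7.33 FPKM in wild type without overlap. Its difference of -0.57 was not called there (limma adjusted p = 0.363). These 6 libraries were picked after seeing the data, and the share of all genes without overlap among them was not computed. With so few libraries a lack of overlap carries little weight, and over all 10 libraries Scn4b overlapped. In the 4 high libraries Scn4b had 7.39 and 10.2 FPKM in Tshr-/- and 10.04 and 10.7 FPKM in wild type. The ratio of Scn4b to Scn1a was 0.523 ± 0.0804 in Tshr-/- and 0.724 ± 0.0999 in wild type (SD, n = 5 each), and these ratios overlapped between the genotypes. With the mean of the interneuron markers as a covariate, the Scn4b difference was -0.15 (limma adjusted p = 0.786), and the call depends on which list is used.

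**Figure D3:**
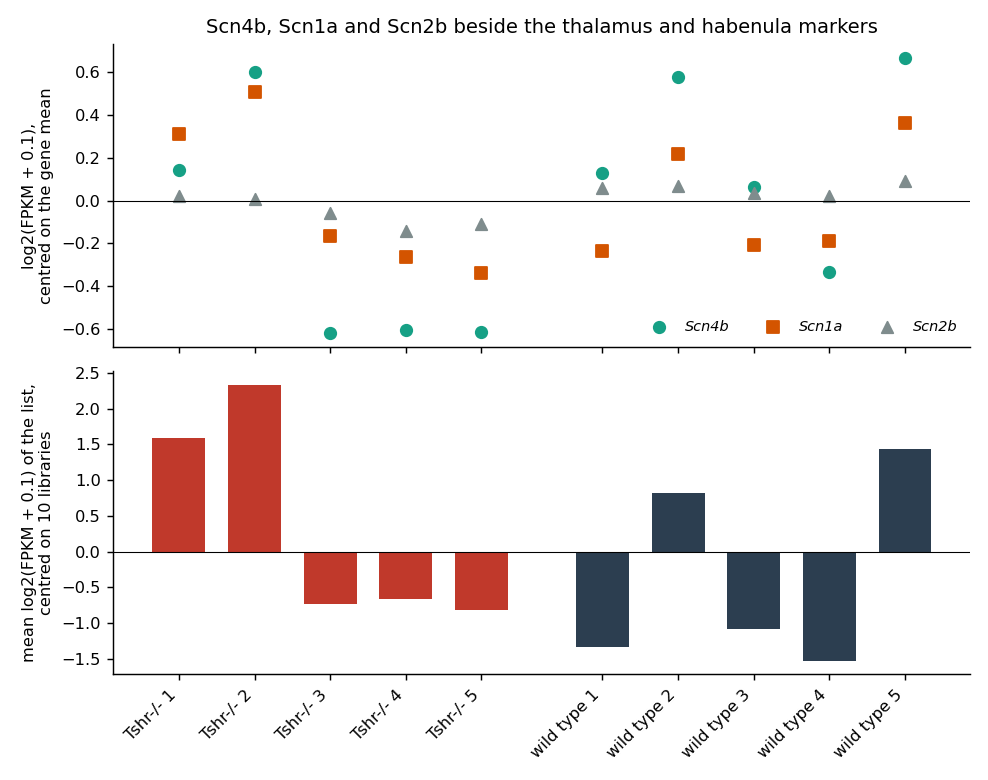
Top, log2(FPKM + 0.1) of Scn4b, Scn1a and Scn2b in each library, centred on the mean of the gene. Bottom, the mean of the thalamus and habenula markers, centred on all 10 libraries. Scn4b and Scn1a stood above their means in Tshr-/- libraries 1 and 2 and wild type libraries 2 and 5, where the marker list stood at 0.82 to 2.33. Scn4b also stood above its mean in wild type libraries 1 and 3 (0.13 and 0.06), where the list stood at -1.33 and -1.09.

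Summed markers of dentate and CA1 neurons had lower means in Tshr-/- beside the beta genes, with no single marker called, and CA3 and CA2 markers had close means. The 8 dentate granule neuron markers summed to 64.7 to 104 FPKM in Tshr-/- and 115 to 162 FPKM in wild type, without overlap, and the 8 CA1 markers to 125 to 207 FPKM in Tshr-/- and 182 to 252 FPKM in wild type. The 8 CA3 and CA2 markers summed to 149.9 ± 24.1 FPKM in Tshr-/- and 153 ± 12.3 FPKM in wild type (SD, n = 5 each), with overlap. By sign 7 of these were lower in Tshr-/- at the deposited scaling and 3 when centred on pan-neuronal markers. All 8 dentate and 7 of 8 CA1 markers were lower, at the deposited scaling and when centred on pan-neuronal markers. At an unadjusted p below 0.05 limma gave 7 dentate, 4 CA1 and 1 CA3 and CA2 markers, against 13% of all genes. Genotypes did not overlap for 3, 0 and 1 of these lists' markers, against 2.68% of all genes. C1ql2 held the largest part of the dentate sum (44.4 FPKM in Tshr-/-, 77.8 FPKM in wild type). No gene of the 3 lists was at 0 in any library and 0 were called. The pan-neuronal markers, 10 of 10 measured, summed to 1155 to 1355 FPKM in Tshr-/- and 1241 to 1369 FPKM in wild type. Parvalbumin and other interneuron markers, 10 of 10 measured, summed to 382 to 610 FPKM in Tshr-/- and 524 to 602 FPKM in wild type, most of it Sst (289 ± 87.4 FPKM in Tshr-/- and 357 ± 31.5 FPKM in wild type, SD, n = 5 each). Pvalb, the parvalbumin gene, had 28.8 ± 6.95 FPKM in Tshr-/- and 41.1 ± 9.29 FPKM in wild type with overlap (limma adjusted p = 0.287). Gad1, a GABA-synthesising enzyme, had 32.7 ± 1.496 FPKM in Tshr-/- and 37.5 ± 2.38 FPKM in wild type (limma adjusted p = 0.204). It was the 1 gene of the 10 interneuron markers without overlap at the deposited scaling. By sign 7 of the 10 were lower in Tshr-/- and 3 higher, which became 5 and 5 when centred on pan-neuronal markers. The higher ones at the deposited scaling were Tac1 (0.39), Erbb4 (0.08) and Kcnc2 (0.05), and 0 of the 10 were called. The part of the interneuron and pan-neuronal markers in the differences of Scn2b and Scn3b was tested only through the covariate fits and the centring on pan-neuronal markers. That of the dentate, CA1 and CA3 lists was not tested. Centred on pan-neuronal markers, Scn3b stood at -0.26 (limma adjusted p = 0.281). With the interneuron covariate it was called, at -0.45 (limma adjusted p = 0.0254), among 433 genes called in that fit. Over the 25 alternatives the adjusted p of Scn3b ran from 0.0254 to 0.428.

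The genes most like a member were found over the 10 libraries by the root mean square difference of log2(FPKM + 0.1) values, each gene centred on its own mean. For Scn4b they were Nefh (0.133), Vamp1 (0.182) and Fbxw15 (0.205), where Scn4b itself had an SD of 0.52. For Scn1a they were Eif5a2 (0.0869), Inpp5a (0.0885) and Thsd7a (0.0893), with an SD of 0.314 for Scn1a. For Scn3b they were Tesc (0.0599), Tnks1bp1 (0.0631) and Pantr1 (0.0665), with an SD of 0.235. Nearest to Scn2a (SD 0.139) were Xkr4 (0.0482), Cask (0.0538) and Armcx4 (0.0598), and to Scn8a (SD 0.108) Fbxl17 (0.0321), Nrxn3 (0.0396) and Csnk1a1 (0.0408). For the steadier Scn2b (SD 0.0773) they were St13 (0.0231), Vta1 (0.0328) and Mkrn2 (0.033). For Scn3a they were Rars2, Nup205 and Tmem131 (0.0367 to 0.0369), beside an SD of only 0.0568 for Scn3a itself.

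Other genes of sodium conductance came from lists drawn up by function. Further alpha genes stayed under the filter and were not tested. Scn7a, an atypical channel, averaged 0.336 ± 0.103 FPKM in Tshr-/- and 0.182 ± 0.0651 FPKM in wild type (SD, n = 5 each). Scn9a, best known from peripheral sensory neurons, averaged 0.431 ± 0.203 FPKM in Tshr-/- and 0.291 ± 0.0696 FPKM in wild type. Scn9a in Tshr-/- libraries 1 and 2, at 0.478 and 0.766 FPKM, lay above every wild type library, and the other Tshr-/- libraries lay within the wild type range. Scn7a had 4 Tshr-/- libraries above every wild type library, and overlapped through Tshr-/- library 5, at 0.207 FPKM. Scn4a, Scn10a and Scn11a had at most 0.0342 FPKM.

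The sodium leak channel complex had 4 of its 4 genes in the table tested and 0 called. Nalcn, its pore, had 16.6 ± 2.21 FPKM in Tshr-/- and 15.3 ± 1.33 FPKM in wild type, and its partners Unc79, Unc80 and Fam155a differed by -0.14, 0.02 and -0.09. The intracellular FGF proteins bind the tails of alpha subunits. Of their 4 genes 0 were called, with Fgf11 at 10.9 ± 1.88 FPKM in Tshr-/- and 14.1 ± 1.22 FPKM in wild type (limma adjusted p = 0.221), Fgf13 at -0.18, Fgf12 at 0.28 and Fgf14 at 0.08. With the interneuron covariate Fgf12 was called higher, at 0.54 (limma adjusted p = 0.0389), among 433 genes called in that fit. With the thalamus and habenula covariate Fgf12 stood at 0.15 (limma adjusted p = 0.588). Its unadjusted p by limma was below 0.05 in 1 of the 25 alternatives.

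Scaffold genes of the axon initial segment and node were tested for 8 of 8, with 0 called and a median difference of -0.10, against -0.01 over all genes. By sign 6 were lower in Tshr-/- and 2 higher, which became 5 and 3 with quantile normalization and 4 and 4 when centred on pan-neuronal markers. Cntnap1, an adhesion protein beside the node, had 42.1 ± 1.97 FPKM in Tshr-/- and 48.5 ± 2.42 FPKM in wild type (SD, n = 5 each), a difference of -0.20 (limma adjusted p = 0.179). Ank3 (ankyrin-G), which anchors sodium channels at the initial segment, had 11.7 ± 0.333 FPKM in Tshr-/- and 12.7 ± 0.436 FPKM in wild type, and its difference of -0.12 did not pass (limma adjusted p = 0.291). Neither gene overlapped between the genotypes at the deposited scaling or with median-ratio scaling, and both did with the other 2 scalings. Over all genes tested, 2.68% did not overlap at the deposited scaling and 2.48% with median-ratio scaling. Both genes were among the 4 of this list named for the smallest p. Sptbn4 (beta-IV spectrin) differed by -0.32 and Trim46, a microtubule organiser of the segment, by -0.23, both with overlap. Of the 2 ubiquitin ligases that act on sodium channels, Nedd4l had 10.9 ± 0.637 FPKM in Tshr-/- and 12.5 ± 0.887 FPKM in wild type (limma adjusted p = 0.24), and Nedd4 differed by 0.04.

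**Figure D4:**
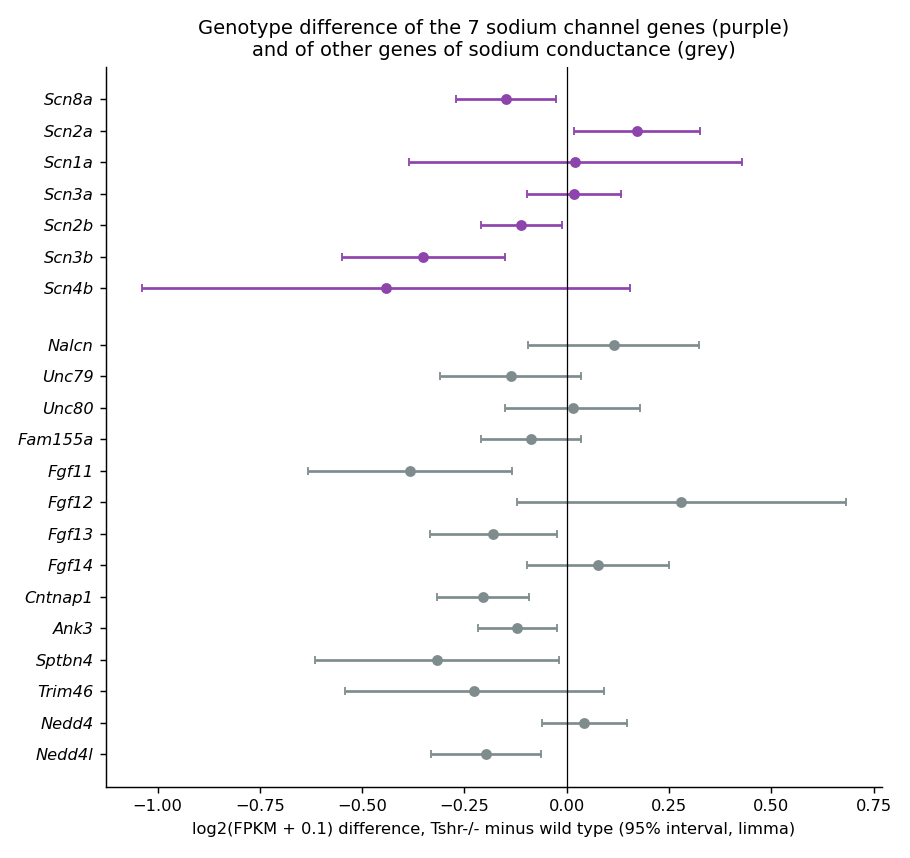
Difference in log2(FPKM + 0.1), Tshr-/- minus wild type, with the 95% interval of limma, for the 7 members (purple) and other genes of sodium conductance (grey). Scn4b and Scn1a had the widest intervals of the members, and no gene shown had an adjusted p below 0.05.

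As facts of the whole series, libraries held 25744854 to 28332278 rebuilt reads in Tshr-/- and 23899650 to 33529811 in wild type. Tshr, the deleted gene, had 7 reads in all Tshr-/- libraries together and 32 in those of wild type, with a mean FPKM difference of -0.0285 (2-sided exact permutation p = 0.0556), so at this depth the level of Tshr does not settle the labels, and no sources used here say whether its row covers the deleted stretch. Choroid plexus markers summed to 2273 FPKM in Tshr-/- library 4 and to 5.18 to 91.3 FPKM in the other 9 libraries. Hippocampal markers of dentate, CA1 and CA3 neurons were present in every library. The sum of FPKM times length relative to the library size used by the authors was 0.945 to 0.999 in Tshr-/- and 0.997 to 1.06 in wild type, so the deposited scaling itself stood slightly lower in Tshr-/-.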

How the data were processed

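Hippocampal RNA of 5 Tshr-/- and 5 wild type samples was sequenced from NEBNext Ultra libraries, per the labels, which keep no strand. The submitters' processing notes name HISAT2 (2.0.5), featureCounts (1.5.0-p3) and mm10, and the annotation release was not stated. The authors deposited FPKM for 52636 genes with gene lengths. Multiplied by length, 100% of FPKM above 0 came out, within 0.01, as whole multiples of a library's smallest value, and these multiples served as rebuilt reads.

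Genes were tested on log2(FPKM + 0.1) with limma 3.58.1 (R 4.3.3), with a mean-variance trend, at a mean of at least 0.5 FPKM, and p-values were adjusted over all 15471 genes by Benjamini-Hochberg. The steps were tested on simulated reads. The log scale with a pseudocount understates changes of low genes. Tshr was compared by an exact permutation test. Besides leaving out each of 10 libraries, 14 alternatives were tried, namely other pseudocounts, filters, scalings, variance models, covariates, a replicate block, protein-coding genes alone and limma voom. A fit of 6 libraries was added after seeing the data. Coding sequences were the longest reading frames of GENCODE vM21 transcripts, aligned with Biopython 1.88.

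The members and gene lists were chosen with earlier results of these data known. Genes named are the members, Tshr, the tested genes of pathway lists of 6 or fewer and otherwise the 4 with the smallest p, the 3 genes most like each member, and genes overlapping a member. Some genes of these lists are not reported here. Alpha genes that were not tested were named after their values were seen, as were the ratios and sums of members. Intervals cover the spread between libraries, and counting errors cover counting alone.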

Additional observations from a re-analysis of the deposited data

How the results depend on the processing

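Over 25 alternatives, Scn2a kept a positive difference and Scn8a, Scn2b, Scn3b and Scn4b a negative one. Scn8a ran from -0.18 to -0.06 and Scn2b from -0.14 to -0.02, both smallest when centred on pan-neuronal markers, and limma's unadjusted p was below 0.05 in 19 of the 25 for Scn8a and in 15 for Scn2b. Scn1a, at 0.02, turned to -0.13 with the thalamus and habenula covariate and to -0.0447 in the 6 libraries low in those markers, and ran from -0.104 to 0.114 with 1 library left out. Scn3a, at 0.02, turned to -0.00482 with the interneuron covariate and ran from -0.0054 to 0.0458 with 1 library left out. Unc80, at 0.02, turned to -0.0298 with the thalamus covariate and -0.0461 in the 6 libraries, and ran from -0.0295 to 0.0643 with 1 left out. Scn3b passed the threshold with the interneuron covariate (-0.45) and Scn4b with the thalamus covariate (-0.67), so members called lower numbered 1 in each of these fits and 0 in the others. Over all genes, against 2 called lower and 0 higher, the counts were 3 lower and 0 higher with a pseudocount of 1, 6 lower and 8 higher with a pseudocount of 0.01, 4 and 0 with no filter, 6 and 7 at a mean of at least 1 FPKM, 6 and 7 with median-ratio scaling, 2 and 2 with quantile normalization, 4 and 14 when centred on pan-neuronal markers, 1 and 0 with no mean-variance trend, 9 and 8 among protein-coding genes alone, 19 and 9 with the thalamus covariate, 241 and 192 with the interneuron covariate, and 2 and 1 in the 6 libraries. With 1 library left out they were 0 to 5 lower and 0 to 4 higher. The Tshr difference was -0.0345 to -0.0230 FPKM with 1 library left out, and passed without Tshr-/- library 4, wild type library 4 or wild type library 5 (exact permutation p = 0.0317 each). The cause of these shifts was not tested. Libraries with the same number had correlations of -0.0651 to 0.296 in their deviations from the genotype means. These values cannot settle whether the numbers pair the samples, and the labels state no pairing. With a replicate block Scn4b stood at -0.44 (limma adjusted p = 0.368), Scn3b at -0.35 (limma adjusted p = 0.199), 3 genes were called lower and 0 higher, the Tshr p was 0.188 by exact sign permutation, and Tshr-/- libraries 2 and 4 alone correlated best with their own number. Among the members, Scn4b had the fewest reads, 565 in its lowest library, where counting error was 4.21% of the value.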
